A study of Mus musculus with 12 samples.

Results

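The 10 genes described here are Nlrp2, Nlrp4a, Nlrp4b, Nlrp4c, Nlrp4e, Nlrp4f, Nlrp9a, Nlrp9b, Nlrp9c and Nlrp14, members of the Nlrp family with transcripts in mouse oocytes. They were chosen by symbol from the 24254 genes of the deposited table, and all 10 were found in it. Fully grown oocytes arrested in meiosis, with the germinal vesicle (GV) intact, were sequenced for RNA in 12 libraries of 80 oocytes each. All oocytes came from C57BL/6 mice aged 3 weeks that had received 5 IU of PMSG, a gonadotropin that stimulates follicle growth, 46 h earlier, and all carried a gene trap in Marf1, which encodes an oocyte ribonuclease. GT names the group of 4 libraries from these oocytes. Before collection, those of the 4 GTWT libraries had received, by microinjection, mRNA encoding wild type MARF1, and those of the 4 GTD272 libraries mRNA encoding a MARF1 with a mutation at D272, an aspartate of its nuclease domain. Injected oocytes were kept for 48 h in medium with milrinone, which holds oocytes at the GV stage. Whether GT oocytes were also cultured, or injected with another RNA, is not stated, so injection and culture cannot be told apart from the injected protein in comparisons with GT. The labels name oocytes as the tissue but one protocol speaks of lysed ovaries, and they do not say that libraries of a group came from separate animals, so the p-values refer to the spread among these libraries only, which may be technical.

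NLRP proteins carry an amino-terminal pyrin domain, a central NACHT domain that binds nucleotides, and leucine-rich repeats at the carboxyl end. Some members sense microbes and build inflammasomes, complexes that activate caspase-1. Others are transcribed mainly in germ cells: the mouse Nlrp4 and Nlrp9 genes are families of duplicated copies, and their best-known relative Nlrp5 (MATER) is a core of the subcortical maternal complex, a protein assembly under the egg membrane that the early embryo needs. Among the 10 genes, Nlrp2 and Nlrp4f encode proteins reported to associate with that complex in the mouse. Loss of maternal Nlrp2 or Nlrp14 impairs early mouse embryos, and knockdown of Nlrp4e arrests them. Nlrp9b is also known from mouse intestine, where it senses rotavirus RNA together with the helicase Dhx9.

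The 10 genes are copies of one another to very different degrees, which bears on how far their reads can be separated. In the GENCODE M21 annotation of GRCm38, Nlrp4f lies on chromosome 13 and the other 9 genes on chromosome 7. Coding sequences within the Nlrp4 group were 77.8% to 93.9% identical over aligned positions, and those within the Nlrp9 group 82.8% to 87.7%. Between the groups, Nlrp2 and Nlrp14 included, identity was 58.1% to 63.1%, and with Nlrp5 it was 59.5% to 63.5%. Nlrp4c and Nlrp4e form the closest pair, and the values below separate them. The first 150 coding bases of the 5 Nlrp4 genes are shown for that reason, with capitals at each base that differs from Nlrp4c (GENCODE M21 transcripts, GRCm38, written 5′ to 3′).
Nlrp4c, gene at chr7:6045161-6105149, plus strand: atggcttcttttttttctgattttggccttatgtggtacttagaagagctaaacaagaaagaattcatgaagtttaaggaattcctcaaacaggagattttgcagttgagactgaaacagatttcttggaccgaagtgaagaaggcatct
Nlrp4e, gene at chr7:23301192-23362277, plus strand: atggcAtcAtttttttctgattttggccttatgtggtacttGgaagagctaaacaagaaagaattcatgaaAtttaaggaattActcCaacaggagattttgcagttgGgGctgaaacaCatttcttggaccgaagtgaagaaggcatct
Nlrp4a, gene at chr7:26435113-26476142, plus strand: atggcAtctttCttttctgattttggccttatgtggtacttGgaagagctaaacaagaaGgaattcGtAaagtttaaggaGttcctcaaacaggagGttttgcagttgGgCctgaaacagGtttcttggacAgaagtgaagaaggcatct
Nlrp4f, gene at chr13:65177111-65205716, minus strand: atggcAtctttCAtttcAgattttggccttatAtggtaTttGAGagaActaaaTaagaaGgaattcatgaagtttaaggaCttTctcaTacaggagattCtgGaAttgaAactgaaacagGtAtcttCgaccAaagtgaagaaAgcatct
Nlrp4b, gene at chr7:10687793-10730168, plus strand: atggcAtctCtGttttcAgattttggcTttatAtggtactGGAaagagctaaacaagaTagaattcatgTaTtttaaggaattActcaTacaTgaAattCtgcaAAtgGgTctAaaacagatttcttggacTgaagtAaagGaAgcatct
In this stretch Nlrp4e differs from Nlrp4c at 9 bases, Nlrp4a at 12, Nlrp4f at 24 and Nlrp4b at 26.

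**Figure D1:**
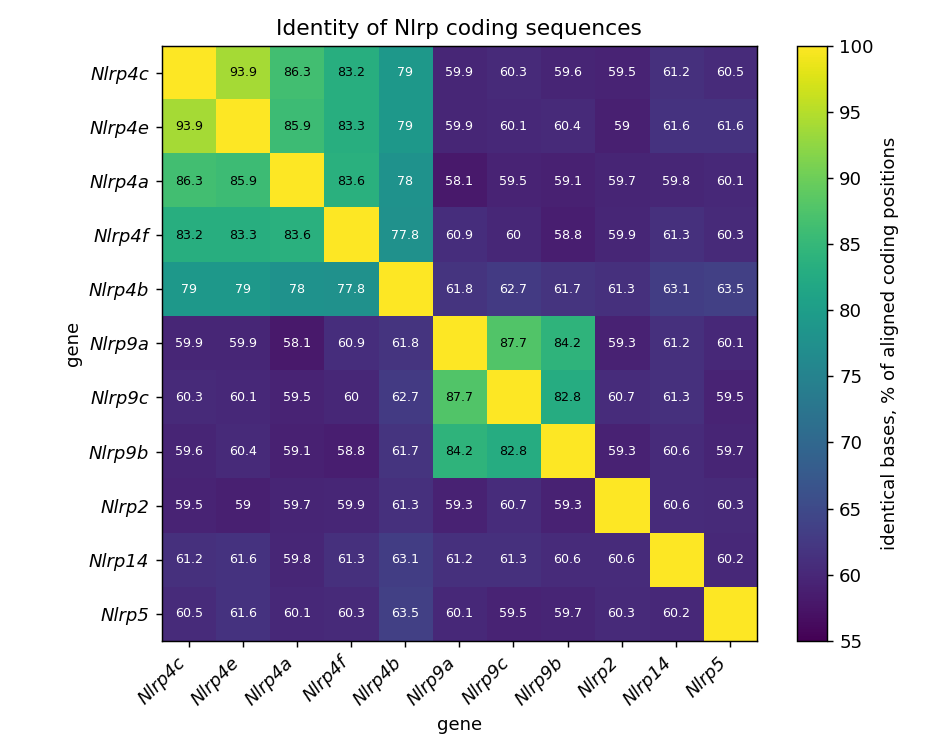
Identity between the coding sequences of the 10 Nlrp genes and Nlrp5, as the percentage of aligned positions with the same base; both axes list genes and the colour scale runs from 55 to 100%. The Nlrp4 block (77.8 to 93.9%) and the Nlrp9 block (82.8 to 87.7%) stand out from the other pairs (58.1 to 63.5%).

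Reads were 150 bases long, and a read can be assigned by sequence only where its letters are not found in another gene. Of the windows of 150 bases along each transcript, none was found in a GENCODE M21 transcript of another gene for 9 of the 10 genes. Nlrp4e was the exception, with 110 of 3233 windows (3.4%) found elsewhere. With windows of 75 bases, 20.2% of the Nlrp4e transcript was shared, against 3.42% for Nlrp4c, 3.09% for Nlrp9b, 2.42% for Nlrp4f, 2.21% for Nlrp9a, 1.56% for Nlrp9c and 0.358% for Nlrp4a. Nlrp2, Nlrp4b and Nlrp14 shared none. Most of the shared Nlrp4e windows lay in the predicted genes Gm8486 (619 of 3308 windows), Gm16443 (618), Gm8685 (603), Gm8728 (602) and Gm4541 (537), while Nlrp4c held 77 of them. The FPKM of Nlrp4e is therefore uncertain by the share of reads that the authors' counting gave to such copies. Nlrp4c and Nlrp4e are identical over at most 120 consecutive bases, and Nlrp9a and Nlrp9b over at most 129, both shorter than a read.

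The level of each gene was measured in FPKM, a fragment count divided by transcript length and by the total of mapped fragments, so levels can be compared between genes per length. All 10 genes passed the filter used for testing (4 or more libraries with an FPKM of 1 or higher), as did 11687 genes in all. Nlrp14 had the highest level of the 10, at 844 ± 51.2 FPKM in GT, 830 ± 65.7 in GTD272 and 937 ± 86.5 in GTWT (mean ± SD over 4 libraries, as throughout), and ranked 36th by mean FPKM among the genes tested. Nlrp4f followed at 361 ± 9.80, 325 ± 12.2 and 372 ± 33.5 FPKM in the same order of groups, at rank 113. Nlrp4e was the lowest, at 23.1 ± 1.81, 17.6 ± 2.24 and 24.4 ± 1.38 FPKM, at rank 4001.

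The order of the means was the same in each of the 3 groups: Nlrp14, Nlrp4f, Nlrp9b, Nlrp4a, Nlrp4b, Nlrp9a, Nlrp4c, Nlrp2, Nlrp9c and Nlrp4e. Most neighbours in this order were separated in every library. The exceptions were Nlrp4b and Nlrp9a, whose libraries overlapped in every group, and Nlrp9b and Nlrp4a, whose libraries overlapped in GT only. Each subfamily spanned a wide range: mean FPKM over all 12 libraries ran from 21.7 for Nlrp4e to 353 for Nlrp4f among the Nlrp4 genes, and from 33.3 for Nlrp9c to 234 for Nlrp9b among the Nlrp9 genes. The closest pair in sequence thus did not have the closest levels, since Nlrp4c had a mean of 71.3 FPKM. Nlrp9a at 101 FPKM and Nlrp9c at 33.3 likewise lay apart, although they are the most alike of the Nlrp9 coding sequences.

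**Figure D2:**
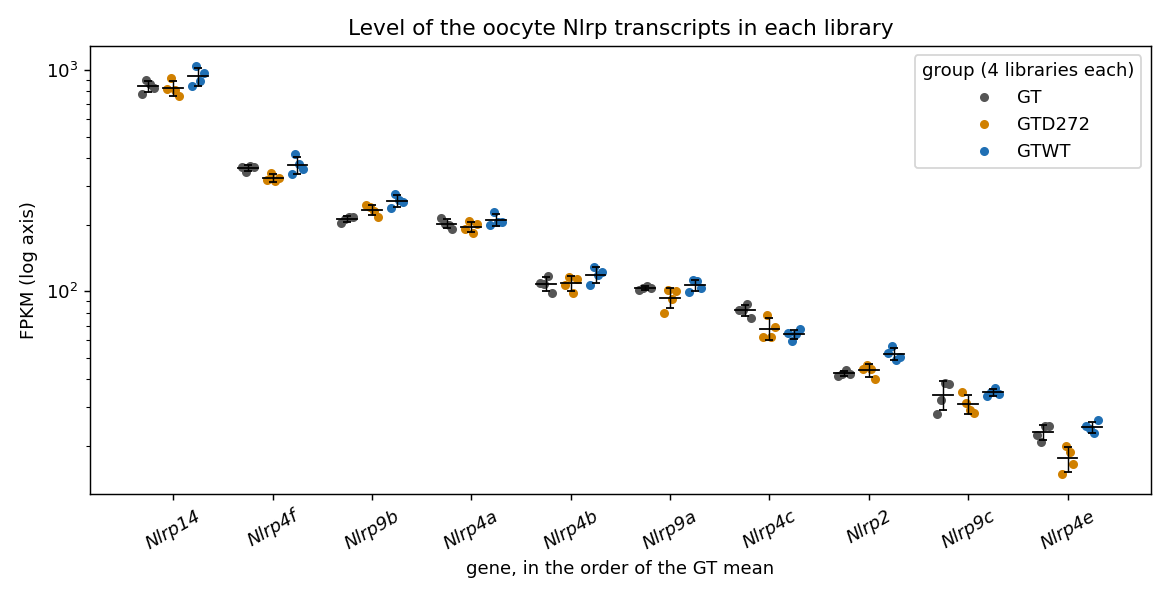
FPKM of the 10 Nlrp genes in each library on a log axis, with genes on the x axis in the order of the GT mean, 1 point per library, and bars for the mean and SD of 4 libraries. Nlrp14 reaches 1039 FPKM in GTWT 2 and Nlrp4e reaches 14.9 in GTD272 1; the order of means is shared by the groups.

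Marf1, the trapped and injected gene, served as a check of the labels. Its FPKM was 1.27, 1.71, 1.83 and 1.59 in the GT libraries, 9.73, 9.10, 9.66 and 7.99 in GTD272, and 13.5, 24.1, 13.6 and 19.02 in GTWT, so the groups did not overlap. The GTWT libraries were also above those of GTD272, and that comparison therefore sets a higher level of 1 mRNA beside a lower level of the other. All 10 oocyte markers on the list used here were present, with a summed level of 10320 to 11660 FPKM per library. Of 9 blood and immune markers 7 were at 0 in every library, and of 7 theca and stroma markers 3, with sums of at most 1.501 and 2.106 FPKM. The granulosa sum was 141 to 150 FPKM in GT, 127 to 136 in GTD272 and 120 to 129 in GTWT. Most of it was Nr5a2, a nuclear receptor, at 125 ± 4.04, 109 ± 3.31 and 103 ± 3.09 FPKM, while the granulosa receptor gene Fshr was at most 0.831 in any library. Of 10 granulosa markers 4 passed the filter, and 2 of these had a log2 difference above 0 in each comparison with GT. Cyp19a1 had rising means of 4.87, 5.04 and 6.67 FPKM, and Kitl falling means of 14.4, 12.9 and 12.7. Neither passed the limma test described below, so the fall of the sum does not stand for all of its genes. Nr5a2 did pass that test, as lower in GTWT against GT (log2 difference -0.27, adjusted p = 0.00135), which held under all 21 alternatives. In GTD272 against GT it was called lower too (log2 difference -0.19, adjusted p = 0.0392), a call lost under 13 of 21 alternatives. The part of the difference in the granulosa sum in the results below was not tested. In these pooled samples, fewer cells of a kind and less RNA per cell cannot be told apart. Relative depth was 55.4% to 100% of the deepest library in GT, 64.6% to 82.2% in GTD272 and 66.1% to 84.3% in GTWT.

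The design sets GTWT beside GT to show what the oocyte transcriptome looks like once wild type MARF1 mRNA has been supplied. Among the 10 genes, Nlrp2 and Nlrp9b rose, to 1.23 and 1.21 times their GT means, Nlrp4c fell to 0.78 times its GT mean, and 7 genes did not pass the test. Calls were made with limma on log2(FPKM + 1), at an adjusted p (Benjamini-Hochberg, over all 11687 genes) below 0.05. The 3 called genes of 10 stand beside 16.6% called among all genes tested, 6.14% as higher and 10.5% as lower. That split of all genes depended on the scaling, at 717 higher and 1223 lower here and 984 higher and 976 lower with quantile normalization. The 3 called Nlrp genes comprise Nlrp2, 1 of the 3 Nlrp9 genes and 1 of the 5 Nlrp4 genes.

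Nlrp2 was at 41.4, 42.1, 44.3 and 42.3 FPKM in the GT libraries and at 52.8, 56.6, 49.0 and 50.6 in GTWT. Every GTWT library was above every GT library, as for 9.32% of all genes tested. The rise was 0.29 on the log2 scale (SE 0.06, 95% interval 0.16 to 0.42, adjusted p = 0.00689). The table puts Nlrp2 in a locus shared with Gm5065, a predicted gene on the other strand. Their spans overlap by 499 bases at chr7:5350537-5351035, and their annotated exons do not overlap. Gm5065, singled out after its values were seen, rose too, from 54.3 ± 6.51 to 67.4 ± 3.71 FPKM (log2 difference 0.31, SE 0.08, adjusted p = 0.0199). The labels do not say whether strand was used in counting, so reads within the overlap but outside annotated exons cannot be told apart. Reads in the exons differ by position, and the part of shared reads in either rise was not tested.

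Nlrp9b was at 203, 212, 217 and 217 FPKM in GT and at 239, 277, 259 and 253 in GTWT. The lowest GTWT library was above the highest GT library. Nlrp9b rose by 0.27 (SE 0.05, 95% interval 0.16 to 0.38, adjusted p = 0.00346). The other Nlrp9 genes overlapped between the groups: Nlrp9a was at 103.5 ± 2.06 FPKM in GT and 106 ± 6.43 in GTWT, and Nlrp9c at 34.1 ± 5.10 and 34.9 ± 1.15. Their log2 differences were 0.04 with intervals from -0.11 to 0.19 and from -0.17 to 0.25.

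Nlrp4c was at 82.6, 82.6, 87.6 and 75.5 FPKM in GT and at 64.7, 59.8, 63.9 and 67.3 in GTWT. Here the order was turned, with every GTWT library below every GT library, as for 12.6% of all genes tested. Nlrp4c fell by 0.36 (SE 0.07, 95% interval -0.52 to -0.19, adjusted p = 0.00629). None of the other 4 Nlrp4 genes passed the test, with log2 differences of 0.05 for Nlrp4a, 0.13 for Nlrp4b, 0.07 for Nlrp4e and 0.04 for Nlrp4f. Its closest copy Nlrp4e was at 23.1 ± 1.81 FPKM in GT and 24.4 ± 1.38 in GTWT, with an interval of the log2 difference from -0.13 to 0.27. Nlrp14 had a log2 difference of 0.15 (SE 0.07, adjusted p = 0.165) with overlapping libraries. The calls of Nlrp2, Nlrp9b and Nlrp4c held under each of the 21 alternative settings tried, each omission of 1 library included. The authors' deposited table calls the same 3 of the 10 genes at q under 0.05 (log2 fold changes of 0.31, 0.29 and -0.34). It calls 8.95% of its 24254 genes, a share that includes genes below the filter used here and so is not like the 16.6% above.

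Counted by direction alone, 9 of the 10 genes had a log2 difference above 0 between GTWT and GT, against 48.3% of all genes tested. Their median was 0.06, and that of all genes tested was -0.011. Apart from Nlrp2 and Nlrp9b, the genes above 0 did not pass the test, and their libraries overlapped between the groups.

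The comparison of GTD272 with GT asks the same of the mRNA with the mutation at D272. Of the 10 genes only Nlrp4e passed the test, and it was lower in GTD272 (2.95% of all genes tested were called, 1.41% as higher and 1.54% as lower). Nlrp4c, its closest copy, was lower by a similar amount without passing. Nlrp2, which rose in GTWT, was at 43.9 ± 2.75 FPKM in GTD272 and 42.5 ± 1.21 in GT (log2 difference 0.04, adjusted p = 0.758). Nlrp9b, which also rose in GTWT, was at 233 ± 12.2 FPKM in GTD272 and 212 ± 6.56 in GT. Its log2 difference was 0.13 (interval from 0.02 to 0.24, adjusted p = 0.184), which did not pass the test. GTD272 4 lay within the GT range of Nlrp9b and the other GTD272 libraries above it. The GTD272 mean of Nlrp9b thus lay between those of GT and GTWT. This comparison and the previous one share the GT libraries and so are not independent.

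Nlrp4e, whose knockdown arrests mouse embryos, was at 22.5, 20.9, 24.7 and 24.6 FPKM in GT and at 14.9, 19.97, 18.7 and 16.6 in GTD272. Every GTD272 library was below every GT library, as for 7.59% of all genes tested, with GTD272 2 nearest to them. Nlrp4e fell by 0.39 on the log2 scale (SE 0.09, 95% interval -0.58 to -0.19, adjusted p = 0.042), to 0.76 times the GT mean, and the authors' deposited table calls it too (log2 fold change -0.39, q = 0.00223, with 3.04% of all its genes called). The call was not stable: it was lost under 12 of 21 alternatives, with no filter on low values, with only the GT and GTD272 libraries in the model, with a replicate block, and without any 1 of GT 1, 2, 3 or 4, GTD272 1, 3 or 4, or GTWT 1 or 4 (adjusted p = 0.05003 to 0.112), while the log2 difference stayed between -0.45 and -0.31. Gm4541, 1 of the copies that share windows with Nlrp4e, was at 5.69 ± 0.603 FPKM in GT and 4.47 ± 0.675 in GTD272 and did not pass the test (log2 difference -0.29, adjusted p = 0.191), and the part of shared reads in the Nlrp4e value was not tested.

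Nlrp4c was at 62.2, 78.0, 62.1 and 69.0 FPKM in GTD272, against 75.5 to 87.6 in GT. GTD272 2 lay within the GT range and the other GTD272 libraries below it. The log2 difference was -0.28 (SE 0.07, 95% interval -0.44 to -0.12) with an adjusted p of 0.0636. Without GTD272 2 the difference was -0.34 and passed (adjusted p = 0.0259), and the authors' deposited table calls Nlrp4c lower (log2 fold change -0.27, q = 0.0111).

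Nlrp4f, reported to associate with the subcortical maternal complex, was at 363, 347, 369 and 364 FPKM in GT and at 317, 343, 317 and 325 in GTD272. The groups did not overlap, GTD272 being lower in each library, as for 7.59% of all genes tested. A further 5.37% were apart in the other direction. The log2 difference of -0.15 (SE 0.06, adjusted p = 0.162) did not pass the test. Nlrp9a had the same difference of -0.15 (adjusted p = 0.263), from 103.5 ± 2.06 to 93.5 ± 9.77 FPKM, with the lowest value of 80.1 in GTD272 1. Nlrp14, Nlrp4a, Nlrp4b and Nlrp9c had log2 differences of -0.03, -0.05, 0.01 and -0.13 and overlapping libraries. In all, 3 of the 10 genes had a difference above 0, against 48.7% of all genes tested, and the median was -0.09 against -0.006.

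**Figure D3:**
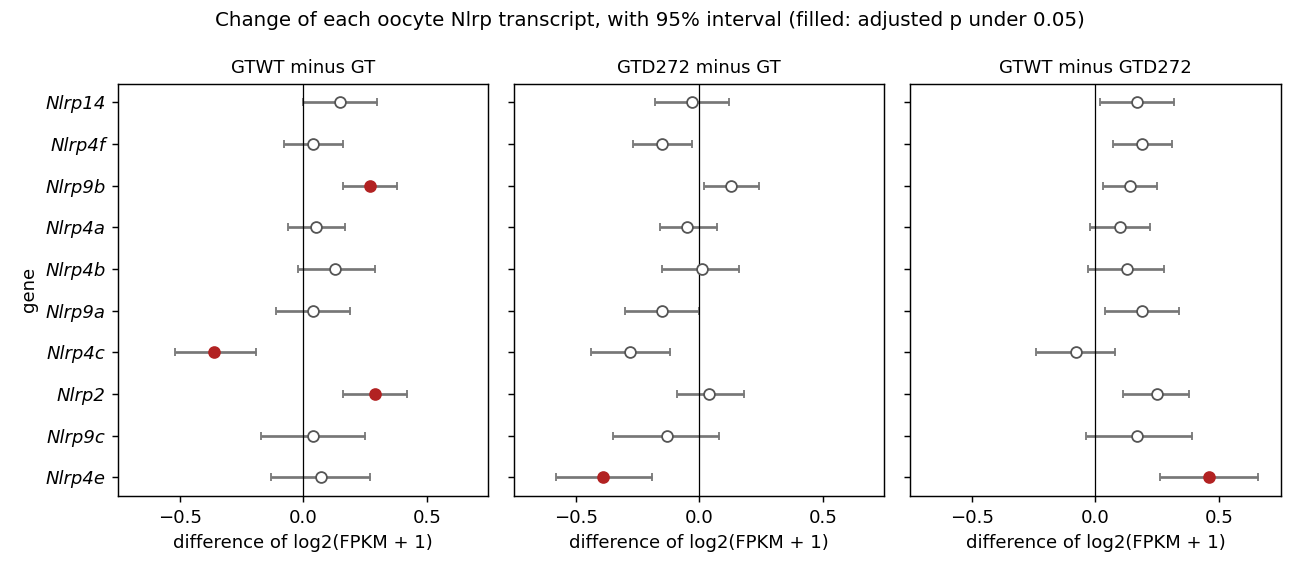
Difference of log2(FPKM + 1) for each of the 10 Nlrp genes (y axis) in the 3 comparisons, with 95% intervals from limma; filled points have an adjusted p under 0.05. Nlrp2 (0.29), Nlrp9b (0.27) and Nlrp4c (-0.36) are filled for GTWT against GT, and Nlrp4e is filled for GTD272 against GT (-0.39) and for GTWT against GTD272 (0.46). The panels share libraries.

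The comparison of GTWT with GTD272 sets the injected groups side by side, both cultured in milrinone. Nlrp4e was called, as higher in GTWT, and the other 9 genes were not (2.46% of all genes tested were called, 0.625% as higher and 1.84% as lower). Over all genes these were 73 higher and 215 lower, and 144 and 183 with quantile normalization. With GTD272 at 14.9 to 19.97 FPKM, Nlrp4e was at 24.6, 23.9, 22.8 and 26.1 in the GTWT libraries. All GTWT libraries were above all GTD272 libraries, and their range overlapped that of GT. Nlrp4e was higher by 0.46 (SE 0.09, 95% interval 0.26 to 0.66, adjusted p = 0.0216), at 1.39 times the GTD272 mean. The call was lost with only these groups in the model (0.0575) and without GTD272 1 (0.0526), GTD272 4 (0.0551) or GTWT 4 (0.0589), and kept under the other 17 alternatives, the authors' deposited table among them (log2 fold change 0.49, q = 0.00189, with 2.52% of all its genes called).

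Nlrp2 did not overlap between the injected groups either, at 40.1 to 46.6 FPKM in GTD272 and 49.0 to 56.6 in GTWT. GTWT libraries were all above those of GTD272 for 4.26% of all genes tested, and all below for 5.93%. The log2 difference of 0.25 (SE 0.06, 95% interval 0.11 to 0.38) just missed the threshold (adjusted p = 0.0544), and passed with a filter at FPKM 5 (0.0436), with quantile normalization (0.0379), with median-ratio rescaling (0.0454) and without GTWT 3 (0.0474). Nlrp4f was at 325 ± 12.2 FPKM in GTD272 and 372 ± 33.5 in GTWT, with GTWT 1 at 338 inside the GTD272 range. Its log2 difference of 0.19 (SE 0.06, adjusted p = 0.09) passed with quantile normalization (0.0334) and without GTWT 1 (0.0406).

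Nlrp4c had means below that of GT in both injected groups, at 67.8 ± 7.55 FPKM in GTD272 and 63.9 ± 3.07 in GTWT, with a log2 difference of -0.08 and an interval from -0.24 to 0.08. The other 9 genes had a higher mean in GTWT than in GTD272, against 47.3% of all genes tested, with log2 differences from 0.10 for Nlrp4a to 0.46 for Nlrp4e. The median over the 10 genes was 0.17, and that over all genes tested -0.012. Nlrp14, the most abundant, was at 820, 921, 811 and 765 FPKM in GTD272 and at 846, 1039, 889 and 974 in GTWT. Its libraries overlapped through GTD272 2, and the log2 difference was 0.17 (SE 0.07, adjusted p = 0.198). The libraries of Nlrp9b overlapped too, and its log2 difference was 0.14 (SE 0.05, adjusted p = 0.162).

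Many of the genes were high or low together in single libraries. GTWT 2 held the highest value of its group for 7 of the 10 genes and the lowest for Nlrp4c. The median deviation of the 10 genes from their GTWT means was 0.112 on the log2 scale in that library, against -0.006 for all genes tested. GTD272 2 was the highest of its group for 8 of the 10 genes (median deviation 0.089, all genes 0.009), and GTWT 1 the lowest of its group for 7 (-0.082, all genes 0.009). GT 3 was the highest of its group for 7, with a smaller median of 0.045. Summed over the 5 genes, Nlrp4 transcripts came to 776 ± 22.2 FPKM in GT, 715 ± 37.8 in GTD272 and 789 ± 51.3 in GTWT. Summed over 3 genes, Nlrp9 transcripts came to 350 ± 13.3, 357 ± 11.7 and 398 ± 22.4 FPKM, of which Nlrp9b made up the most. The lowest GTWT sum for Nlrp9 was 372 and the highest GTD272 sum 372, so these groups overlapped, while all GT sums were at most 361.

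**Figure D4:**
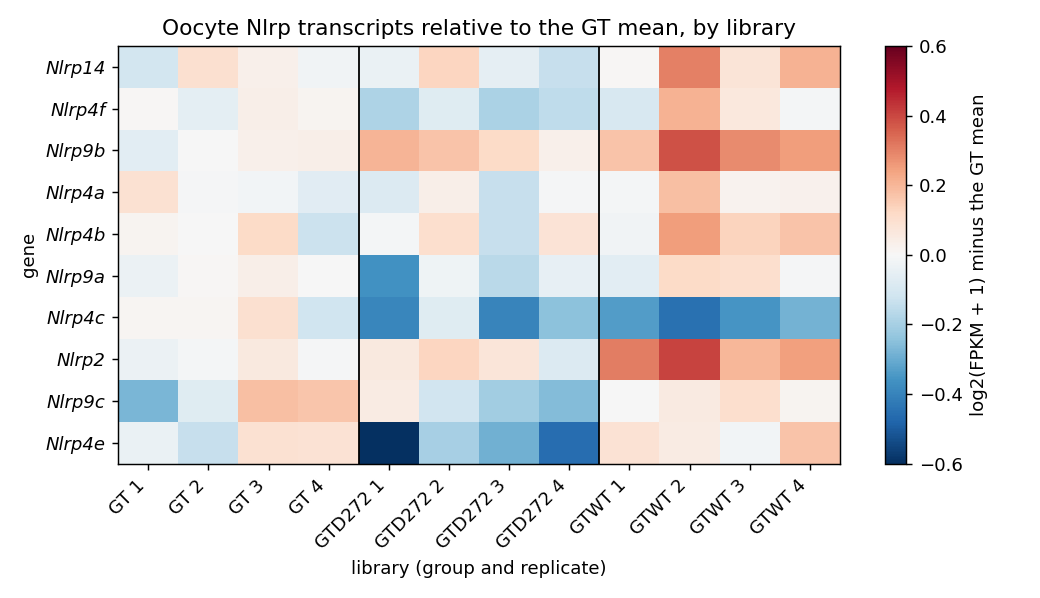
Each library's log2(FPKM + 1) minus the GT mean of the gene, for the 10 Nlrp genes (rows) and 12 libraries (columns), with red above and blue below the GT mean. The Nlrp4c row is blue in all GTWT libraries, the Nlrp4e row is blue in all GTD272 libraries, and the GTWT 2 column is red for most genes.

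As a description over the 12 libraries, which share their groups, each gene was correlated with the mean of the other 9. Nlrp4f followed the others most closely (r = 0.87), then Nlrp14 (0.77), Nlrp9a (0.73), Nlrp4e (0.69), Nlrp4a (0.65), Nlrp4b (0.63), Nlrp2 (0.59), Nlrp9c (0.44) and Nlrp9b (0.38). Nlrp4c did not follow them (-0.14), and its lowest single correlation was with Nlrp9b (-0.76). The highest between 2 of the genes was that of Nlrp2 with Nlrp9b (0.87), both called higher in GTWT against GT. Outside the family, the genes most like the mean pattern of the 10 were Ppp6r3, a subunit of protein phosphatase 6 (r = 0.944), the phospholipase gene Pla2g4c (0.900), the kinase gene Stk35 (0.879), the antizyme inhibitor gene Azin1 (0.870) and the histone demethylase gene Kdm1b (0.868). Each of the 5 had its highest mean in GTWT and its lowest in GTD272: Pla2g4c, for example, was at 296 FPKM in GT, 275 in GTD272 and 323 in GTWT. The 5 genes were picked for likeness to the mean pattern in these same libraries, so their shared order of groups is no separate result.

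The upstream sequences are shown for genes that differed in behaviour and for the pair most alike. RefSeq windows of 250 bases before the annotated start (GRCm38.p6) were found for 9 of the 10 genes, 11 windows in all, with Nlrp14 not among them. Capitals mark, on either strand, the TATA box TATAAA, the element TAATTG and its variant form TAATTA, which the oocyte factor NOBOX binds, and the element TGATTG, which LHX8 binds. Read from the other strand, the last of these is written CAATCA.
Nlrp4c upstream, chr7:6044911-6045160, plus strand: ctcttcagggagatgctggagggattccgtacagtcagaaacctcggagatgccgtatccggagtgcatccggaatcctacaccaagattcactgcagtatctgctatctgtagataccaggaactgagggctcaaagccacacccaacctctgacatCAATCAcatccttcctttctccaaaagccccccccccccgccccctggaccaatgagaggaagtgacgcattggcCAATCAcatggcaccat
Nlrp4e upstream, chr7:23300942-23301191, plus strand: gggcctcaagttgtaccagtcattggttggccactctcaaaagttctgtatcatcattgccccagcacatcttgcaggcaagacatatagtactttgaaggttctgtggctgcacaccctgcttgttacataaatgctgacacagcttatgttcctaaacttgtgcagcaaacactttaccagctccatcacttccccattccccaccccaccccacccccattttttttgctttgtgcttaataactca
Nlrp2 upstream, chr7:5351036-5351285, minus strand: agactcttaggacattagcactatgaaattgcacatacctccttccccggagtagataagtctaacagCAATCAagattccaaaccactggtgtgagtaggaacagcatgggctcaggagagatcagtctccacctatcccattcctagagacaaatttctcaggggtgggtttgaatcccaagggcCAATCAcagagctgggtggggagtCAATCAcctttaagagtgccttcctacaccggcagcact
Nlrp9a upstream, chr7:26534773-26535022, plus strand: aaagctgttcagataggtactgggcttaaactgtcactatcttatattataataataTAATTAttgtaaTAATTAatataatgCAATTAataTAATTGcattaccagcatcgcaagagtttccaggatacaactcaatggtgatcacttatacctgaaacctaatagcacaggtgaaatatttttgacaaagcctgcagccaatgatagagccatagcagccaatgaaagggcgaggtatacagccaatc
Nlrp9c upstream, chr7:26403701-26403950, minus strand: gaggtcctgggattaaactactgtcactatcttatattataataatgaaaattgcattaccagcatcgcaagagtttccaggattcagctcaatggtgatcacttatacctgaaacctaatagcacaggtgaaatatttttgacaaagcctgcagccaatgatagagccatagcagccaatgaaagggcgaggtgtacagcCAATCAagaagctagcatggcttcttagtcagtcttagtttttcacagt
The Nlrp9a and Nlrp9c windows were the same at 195 of 202 aligned bases (96.5%), although Nlrp9a was measured at a mean of 101 FPKM and Nlrp9c at 33.3. Nlrp4c and Nlrp4b were the same at 166 of 206 aligned bases (80.6%), while Nlrp4c and Nlrp4e could be aligned over 37 bases, although their coding sequences are the most alike of the family. Such lengths depend on the annotated start: Nlrp4c could be aligned with 1 Nlrp4a window over 210 bases and with the other over 13. Whether the annotated Nlrp4e start is the one used was not tested. TGATTG was present in 7 of the 11 windows, of 5 genes (Nlrp2, Nlrp4a, Nlrp4b, Nlrp4c and Nlrp9c), and in 12.7% of the 32851 windows of all genes. In 6 of these windows 1 match overlapped CCAAT, a common promoter element looked for after the windows were read, which stood in 8 of the 11 windows and in 33.8% of all windows. The E-box CANNTG was in 9 of 11 windows and 66.2% of all, TAATTG in 2 of 11 and 7.17%, TAATTA in 1 of 11 and 4.84%, and TATAAA in 1 of 11 and 12.4%. Both Nlrp4b windows come from overlapping DNA with 222 identical bases, so a match in that part counts in each of them. The Nlrp9a window ends inside the stretch that holds the TGATTG match of Nlrp9c, so its lack of a match rests on where the window was cut. Copies of a gene share their sequence by descent. The windows are thus not independent, and a match is no evidence of binding.

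Oocytes store many transcripts with short tails until maturation, and the cytoplasmic polyadenylation element TTTTAT near the 3′ end is known to take part. It was found in the last 100 transcript bases of Nlrp4a, Nlrp4c and Nlrp4f, 3 of the 10 genes, and of 14.6% of 10748 protein-coding genes tested. The sites are shown with the element in capitals (GENCODE M21).
Nlrp4a, chromosome 7: ttttcatccaaTTTTATgtcatctctcact
Nlrp4c, chromosome 7: tgttttgtgttTTTTATtaaataataaatt
Nlrp4f, chromosome 13: gctgttttgtgTTTTATattaaagaatagt
The variant TTTTAAT, also searched for, was found in 0 of the 10 genes and in 5.42% of all. The polyadenylation signal AATAAA was found in the same stretch of 6 of the 10 genes and of 64% of all. Nlrp4c held it, while Nlrp4a and Nlrp4f did not, and whether their annotated ends are the ends used was not tested. The AU-rich pentamer ATTTA was found in 2 of the 10 (Nlrp4c and Nlrp9b) and 22.8% of all.

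Most other genes of the wider family lay below the filter in these oocytes. Of 19 other genes with NLR domains listed in the table, 5 passed the filter: Nlrp5, Nlrp4g, Nod2, Naip1 and Naip6. Nlrp5 was at 255 FPKM in GT, 257 in GTD272 and 283 in GTWT and was not called in any comparison, and Nlrp4g at 124, 119 and 127 was not called either. Naip6, a sensor of bacterial flagellin in mice, rose in GTWT from 1.10 ± 0.289 to 2.08 ± 0.367 FPKM (log2 difference 0.55, adjusted p = 0.024), a call lost under 7 of 20 alternatives. In GTD272 Naip6 was at 2.15 ± 0.185 FPKM, also above GT in every library (log2 difference 0.59, adjusted p = 0.0538), and the GTWT and GTD272 levels differed by -0.03. Of 8 inflammasome effectors 2 passed the filter. Pycard, the adaptor that links NLRP proteins to caspase-1, reached at most 0.189 FPKM, and Il1b was listed at 0 in every library. Txnip, which binds thioredoxin, fell in GTD272 from 746 ± 26.3 to 675 ± 13.5 FPKM (log2 difference -0.14, adjusted p = 0.042), a call lost under 14 of 21 alternatives.

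The subcortical maternal complex, with which the Nlrp2 and Nlrp4f proteins are reported to associate, was represented by 6 genes, all tested. Tle6, a core subunit, rose in GTWT from 234 ± 8.70 to 274 ± 28.1 FPKM (log2 difference 0.22, adjusted p = 0.0349), a call lost under 9 of 21 alternatives. Ooep, another core subunit, rose in GTD272 from 468 ± 20.02 to 554 ± 14.9 FPKM (log2 difference 0.25, adjusted p = 0.00943), which held under every alternative run. Nlrp5, Khdc3, Padi6 and Zbed3 were not called in any comparison. Of the known partners of the Nlrp proteins, 3 of 5 were tested and none was called: the Nlrp14 partner Uhrf1 (133, 125 and 138 FPKM in GT, GTD272 and GTWT), the Nlrp9b partner Dhx9 (3.57, 2.58 and 2.71) and Tbk1 (8.09, 8.06 and 7.06), a kinase that human NLRP4 acts on. Dhx9 was below every GT library in all GTWT and GTD272 libraries (log2 differences of -0.30 and -0.35), as for 12.6% and 7.59% of all genes tested. Uhrf1 was higher in all GTWT libraries than in all GTD272 libraries (0.14), as for 4.26%.

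Among 7 oocyte transcription factors, Nobox and Lhx8, whose elements were searched above, were not called in any comparison. Tbpl2, the oocyte form of the TATA-binding protein, fell in GTWT against both GT and GTD272, with means of 136 FPKM in GT, 117 in GTD272 and 67.9 in GTWT (adjusted p = 2.48e-05 and 0.000781, the log2 difference from GTD272 being -0.77). Taf4b, a TFIID subunit, fell from 31.6 ± 2.13 to 23.8 ± 2.90 FPKM in GTWT against GT (log2 difference -0.40, adjusted p = 0.00793). The zona pellucida genes Zp1, Zp2 and Zp3 rose in GTWT against GT, as did Gdf9 and Zar1, while Mos and Oosp1 fell, so 7 of 10 oocyte markers were called there. The calls of Gdf9 and Zar1 were lost under 3 and 5 of 21 alternatives, quantile normalization among them (log2 differences of 0.00 and 0.17). In GTD272 against GT, Zp2, Zp3, Gdf9 and Zar1 rose as well, with log2 differences of 0.34, 0.33, 0.17 and 0.29 (adjusted p = 0.0255, 0.00801, 0.023 and 0.0144), though Gdf9 turned to -0.33 with quantile normalization. The other 6 oocyte markers were not called. Of these calls that of Zp3 held under all 21 alternatives, while those of Zp2, Gdf9 and Zar1 were lost under 6, 8 and 1. No oocyte marker was called between GTWT and GTD272, where 2 of 10 had an unadjusted p under 0.05.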

How the data were processed

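RNA-seq was made from 12 oocyte libraries, 4 in each group; groups were read from sample titles. Per the labels and the submitters' processing notes, the authors trimmed reads of 150 bases, aligned them to mm10 with TopHat2 2.0.13, and computed FPKM with Cufflinks 2.2.1. Their deposited table also holds Cuffdiff log2 fold changes, p-values and q-values, used here only where named. Shares called by those q-values are over all 24254 genes, those below the filter included. These deposited log2 fold changes matched log2 ratios of mean FPKM (r across genes 0.986 to 0.998). Header names stood 1 column left of the values, so columns were taken by number. The annotation and the handling of strand and of multi-mapped reads are not given in the sources used here. FPKM carry no counts; relative depth was read from steps between low values, and no intervals for counting error are given.

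A limma-trend model (limma 3.58.1, R 4.3.3) was fitted to log2(FPKM + 1) of all 12 libraries (residual degrees of freedom 9, prior 4.47), after keeping 11687 genes with FPKM of at least 1 in at least 4 libraries; p-values were adjusted by Benjamini-Hochberg over all of them. The pseudocount of 1 understates changes of low genes. The code was tested on simulated data. Alternatives were pseudocounts of 0.1 and 0.01, no filter or a filter at FPKM 5, quantile normalization, median-ratio rescaling, only the groups compared, a replicate block, the authors' q-value, and the omission of each library. Named genes were all 10 members, genes of the lists called in any comparison, and the 5 genes whose pattern was most like the members' mean; other list genes are named for their role. Members and lists were chosen with earlier results of these data known. Coding sequences and transcripts came from GENCODE M21, upstream windows from RefSeq (GRCm38.p6).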

Additional observations from a re-analysis of the deposited data

How the results depend on the processing

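For GTWT against GT, the 10 Nlrp genes gave 2 calls as higher and 1 as lower under every alternative run, and all genes tested gave 483 to 726 higher and 845 to 1216 lower with 1 library left out, and 984 higher and 976 lower with quantile normalization, against 717 and 1223. For GTD272 against GT, the genes of the 10 called lower numbered 0 with no filter, with only those groups and with a replicate block, 2 by the authors' q-value, and 0 to 2 with 1 library left out. All genes called in that comparison numbered 102 higher and 107 lower with no filter, 319 and 419 by the authors' q-value, and 60 to 168 and 50 to 207 with 1 library left out, against 165 and 180. For GTWT against GTD272, the genes of the 10 called higher numbered 2 with a filter at FPKM 5, 3 with quantile normalization, 2 with median-ratio rescaling, 0 with only those groups, and 0 to 2 with 1 library left out. All genes called higher there numbered 144 with quantile normalization, 27 with only those groups, 176 by the authors' q-value and 29 to 70 with 1 library left out, against 73; those called lower numbered 125 with no filter, 97 with only those groups, 434 by the authors' q-value and 85 to 246 with 1 library left out, against 215. Fewer libraries in a fit leave fewer degrees of freedom; beyond that, the cause was not tested.

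Signs turned only for differences near 0 among the 10 genes, none of them called. With 1 library left out, Nlrp4f in GTWT against GT ran from -0.01 (without GTWT 2) to 0.09, and Nlrp9c from -0.05 (without GT 1) to 0.10. In GTD272 against GT, Nlrp4b ran from -0.03 (without GT 4, and -0.02 without GTD272 2 or GTD272 4) to 0.06, and Nlrp14 from -0.08 to 0.01 (without GT 2 or GTD272 4). Gdf9 in GTD272 against GT, called at 0.17, turned to -0.33 with quantile normalization.

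Over all genes tested, the replicate numbers showed little pairing of the libraries: deviations of same-numbered libraries correlated above 0.1 in 2 of 12 pairs (-0.222 to 0.211). The mean correlation was -0.053 for these pairs and 0.018 for pairs with other numbers. Whether some libraries were handled together was not tested. With the replicate block, all genes called numbered 608 higher and 1091 lower for GTWT against GT, 99 and 95 for GTD272 against GT, and 38 and 149 for GTWT against GTD272, and Nlrp4e in GTD272 against GT had an adjusted p of 0.0764.

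Without read counts, no interval for counting error can be given for any of the 10 genes. Nlrp4e rests on the lowest level and on the least unique sequence of the 10 genes.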
